A study of Mus musculus with 6 samples.

Results

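A set of 10 very large cytoskeletal linker genes was followed in mouse retina, chosen by symbol from a table of 28627 genes. They are the nesprin genes Syne1 and Syne2, the cytoplasmic dynein heavy chain gene Dync1h1, the centrosomal and Golgi scaffold gene Akap9, the spectraplakin genes Macf1 and Dst, the ankyrin genes Ank2 and Ank3, and the spectrin genes Sptan1 and Sptbn1. All 10 were found in the table, and all 10 were among the 16681 genes that passed a filter on low counts. Poly-A RNA had been sequenced from 6 retina samples, 3 from Emcn-/- pups and 3 from Emcn+/+ littermates, all taken on postnatal day 15 after oxygen-induced retinopathy. In this model pups breathe high oxygen, which makes retinal capillaries regress, and then return to room air, where hypoxic retina drives new vessel growth. The deleted gene, Emcn, codes for endomucin, a mucin-like glycoprotein on endothelial cells. The labels do not say how the Emcn-/- allele was made, which strain was used or whether each sample is a separate animal, so spreads are those between these samples and may be technical. The gene list was drawn up with the difference between genotypes already known, so that difference is given for these genes as a description and carries no test.

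The proteins tie parts of the cytoskeleton to each other and to membranes. Nesprins sit in the outer nuclear membrane and, through SUN proteins in the inner membrane, link the nucleus to actin and microtubules, and in the retina this link places photoreceptor nuclei. Dynein carries cargo and nuclei along microtubules, spectraplakins bridge actin and microtubules, and spectrins with ankyrins form the membrane skeleton that holds channels and adhesion molecules in place in neurons.

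The nesprin genes end in a shared coding stretch, shown here because it is what makes both proteins nuclear anchors. It encodes the end of the KASH domain, which inserts into the nuclear envelope and whose tip binds the SUN proteins. The last 90 coding bases, stop codon included, of the longest complete coding transcript in GENCODE M21 are given 5′ to 3′, with capitals at the 68 positions that match between the genes (75.6%).
Syne1: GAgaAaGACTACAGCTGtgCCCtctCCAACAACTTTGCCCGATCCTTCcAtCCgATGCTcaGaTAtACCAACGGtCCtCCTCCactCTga
Syne2: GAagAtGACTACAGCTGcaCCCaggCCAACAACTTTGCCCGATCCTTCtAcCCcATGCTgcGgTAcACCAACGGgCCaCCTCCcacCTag
Over whole genes, between 0 and 4 of the distinct 31-base words of a member's transcripts also occurred in another of the 10, out of 13629 to 41441 words per gene. With all other annotated genes the shared part was 0.00742% (Syne2) to 1.42% (Dst). Exons annotated on the opposite strand overlapped 2.88% of the exonic bases of Dync1h1 and 3.63% of those of Dst, and less than 1% in the others, and the labels name both a stranded and an unstranded kit, so reads of the opposite strand cannot be told apart. The counts are per gene, so isoforms with and without the printed end are summed.

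Gene reads per library numbered 14865868 to 17087621. Emcn had 1.95, 1.04 and 4.62 normalised reads in the Emcn-/- libraries, against 93.3, 80.6 and 100.5 in the Emcn+/+ libraries, so each library matched its label (log2 fold change -4.83 ± 0.40, limma adjusted p = 0.0143). A normalised read is a read count divided by 1 factor per library and is not adjusted for gene length. The retina label fitted the rod markers, whose 14 genes summed to between 1014174 and 1072145 normalised reads in Emcn-/- and between 918107 and 985806 in Emcn+/+. Some libraries stood apart. Emcn+/+ replicate 1 held 47244 normalised reads of 8 lens genes, against 43.7 to 241 in the other 5 libraries. Emcn-/- replicate 2 held 5540 normalised reads of 12 endothelial markers, against 8197 to 8802 in the others. Emcn+/+ replicate 3 had the lowest Emcn+/+ value in all 10 genes, and results with and without it are given.

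The 10 genes are long and strongly expressed. Their exonic length on GRCm38 was 13.4 kb (Sptan1) to 41.2 kb (Dst), with a median of 29064 bases against 4151 bases over all tested genes. Their median gene level was 5471 normalised reads, against 304.0 over all tested genes. Per kb of exonic length, Sptan1 stood highest at 726 ± 47.4 normalised reads per kb in Emcn-/- and 842 ± 14.2 in Emcn+/+ (SD, n = 3 each). Next came Dync1h1, with 459.5 ± 20.05 per kb in Emcn-/- and 571 ± 21.4 in Emcn+/+. Sptbn1 followed with 437 ± 33.5 per kb in Emcn-/- and 496 ± 36.3 in Emcn+/+, and its range overlapped that of Dync1h1. Macf1 and Ank2 could not be ordered: they averaged 229 and 228 normalised reads per kb over the 6 libraries, with Macf1 above Ank2 in 3 of 6. Below them came Syne2 (140.1 per kb), Ank3 (102.8), Akap9 (99.6), Dst (77.1) and Syne1 (57.2). Each of these overlapped its neighbour in range, although Syne2 lay above Ank3, Akap9 above Dst and Dst above Syne1 in all 6 libraries, and Ank3 above Akap9 in 5. The steps from Sptan1 to Dync1h1, from Sptbn1 to Macf1 and from Ank2 to Syne2 had no overlap of ranges. Sptan1 stood 13.7 times as high per kb as Syne1. The order between Sptan1 and Syne1 depends on which exons are counted. Per kb of the longest transcript Sptbn1 averaged 896 normalised reads and stood above Dync1h1 at 563. Ank2 then averaged 559, and Ank3 at 360 stood above Macf1 at 306 and Syne2 at 173.

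Every member had a lower mean in Emcn-/- than in Emcn+/+ retinas. Syne1 (ENSMUSG00000096054), which encodes nesprin-1, lies on GRCm38 chromosome 10, 5020917 to 5551482, minus strand. Its longest annotated transcript has 146 exons and 27908 bases. Syne1 had 2113, 1806 and 1868 normalised reads in Emcn-/- libraries, against 2881, 2868 and 2350 in Emcn+/+ libraries. All 3 Emcn-/- values lay below all 3 Emcn+/+ values, with Emcn+/+ replicate 3 the lowest of its genotype. This gave -0.48 ± 0.09 as log2 fold change with its SE, Emcn-/- over Emcn+/+, computed on log2(value + 1), the largest difference of the 10. Syne2 (ENSMUSG00000063450), for nesprin-2, the nesprin best known from photoreceptor nuclear placement in mice, lies on chromosome 12, 75818134 to 76110926, plus strand. Syne2 had 3206, 2932 and 3356 normalised reads in Emcn-/-, against 4381, 4790 and 3803 in Emcn+/+ (-0.45 ± 0.09). Again the genotypes did not overlap, and replicate 3 was the lowest Emcn+/+ library.

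Dync1h1 (ENSMUSG00000018707, chromosome 12, 110601452 to 110666945, plus strand) encodes the motor subunit of cytoplasmic dynein, the minus-end directed microtubule motor. It had 7179, 6890 and 7517 normalised reads in Emcn-/-, against 9089, 9178 and 8557 in Emcn+/+. Its log2 fold change was -0.31 ± 0.06, with no overlap and the smallest SE of the members. Akap9 (ENSMUSG00000040407, chromosome 5, 3928054 to 4081310, plus strand) encodes a scaffold that anchors protein kinase A and holds microtubule nucleators at the centrosome and the Golgi. Akap9 had 1906, 1741 and 1941 normalised reads in Emcn-/-, against 2492, 2461 and 2213 in Emcn+/+ (-0.36 ± 0.07), and the genotypes did not overlap.

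Macf1 (ENSMUSG00000028649, chromosome 4, 123349633 to 123684360, minus strand) encodes a spectraplakin that guides microtubules along actin. It had 6860, 5902 and 6256 normalised reads in Emcn-/-, against 8581, 8545 and 7037 in Emcn+/+ (-0.34 ± 0.09). The genotypes did not overlap, but Emcn+/+ replicate 3 stood only just above Emcn-/- replicate 1. Dst (ENSMUSG00000026131, chromosome 1, 33908225 to 34308661, plus strand) encodes dystonin, the related spectraplakin whose loss causes sensory neuron degeneration in mice. Dst had 3035, 2524 and 2592 normalised reads in Emcn-/-, against 4254, 3852 and 2783 in Emcn+/+ (-0.40 ± 0.14). Here the genotypes overlapped, because Emcn+/+ replicate 3 lay below Emcn-/- replicate 1, and the SE was the largest of the members.

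Ank2 (ENSMUSG00000032826) encodes ankyrin-B, an adaptor between membrane proteins and spectrin along axons. It lies on chromosome 3, 126921612 to 127499350, minus strand, 9.84 Mb from Emcn on the same chromosome, and a part of that position in its values was not tested. Ank2 had 7333, 6750 and 7230 normalised reads in Emcn-/-, against 9481, 9236 and 7921 in Emcn+/+ (-0.32 ± 0.08), without overlap. Ank3 (ENSMUSG00000069601, chromosome 10, 69398773 to 70027438, plus strand) encodes ankyrin-G, the organiser of the axon initial segment. Ank3 had 3407, 2872 and 3235 normalised reads in Emcn-/-, against 4382, 4073 and 3528 in Emcn+/+ (-0.33 ± 0.09), also without overlap. It has 47 annotated transcripts, the most of the 10.

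The spectrins differed least. Sptan1 (ENSMUSG00000057738, chromosome 2, 29965560 to 30031451, plus strand) encodes the alpha chain of non-erythroid spectrin. It had 9837, 9008 and 10253 normalised reads in Emcn-/-, against 11419, 11287 and 11045 in Emcn+/+ (-0.22 ± 0.06), with no overlap. Sptbn1 (ENSMUSG00000020315, chromosome 11, 30099395 to 30268175, minus strand) encodes a beta chain that pairs with it. Sptbn1 had 8031, 6967 and 7927 normalised reads in Emcn-/-, against 9296, 8721 and 8028 in Emcn+/+ (-0.18 ± 0.08). Emcn-/- replicate 1 and Emcn+/+ replicate 3 were level, so the genotypes overlapped by a small margin.

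**Figure D1:**
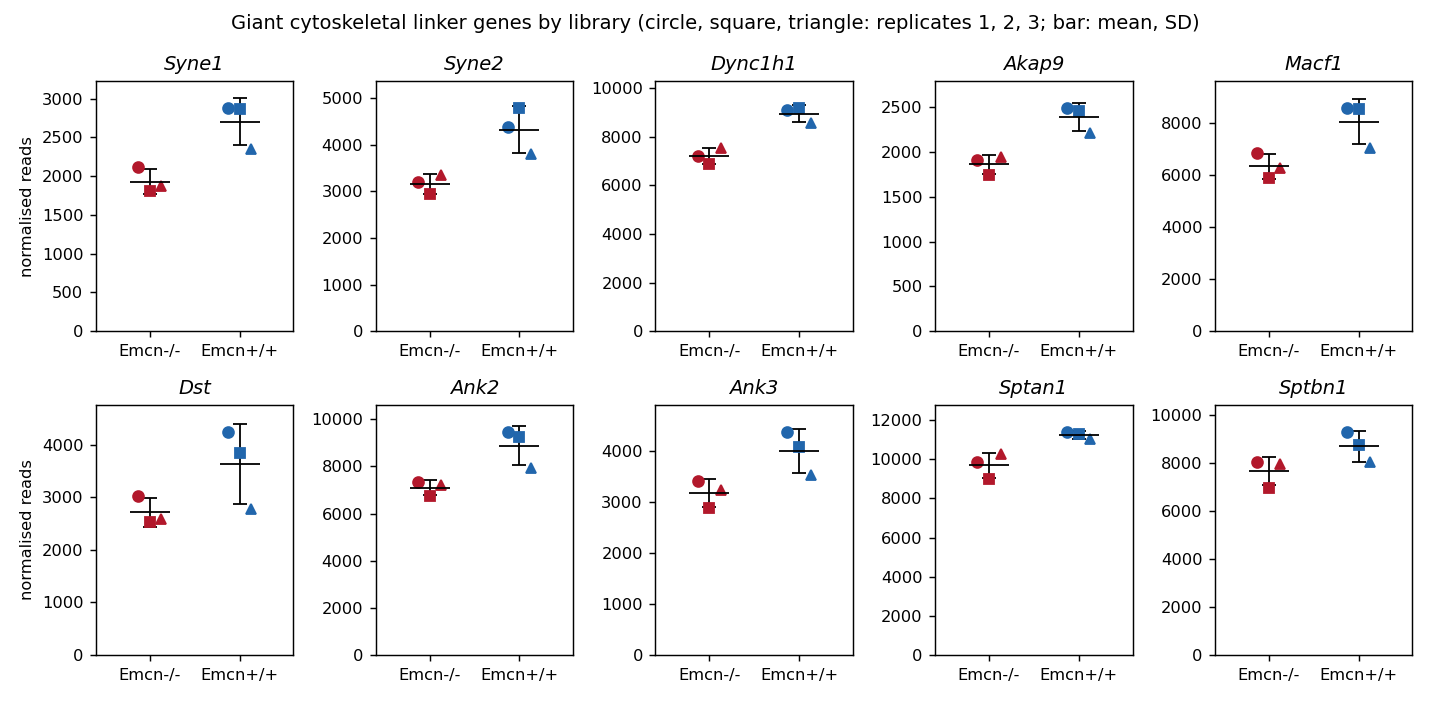
Normalised reads (vertical axes, from 0) of each of the 10 genes, with Emcn-/- libraries in red on the left and Emcn+/+ libraries in blue on the right of each panel. Bars give the mean and SD of 3 libraries, and 8 of the 10 genes have all Emcn-/- points below all Emcn+/+ points, Dst and Sptbn1 being the exceptions.

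Together the 10 genes took 0.331%, 0.299% and 0.330% of the reads of the Emcn-/- libraries, against 0.420%, 0.433% and 0.353% of those of the Emcn+/+ libraries. Exact 95% binomial intervals, which cover counting error only, ran from 0.328% to 0.334% in Emcn-/- replicate 1 and from 0.417% to 0.424% in Emcn+/+ replicate 1. The shares averaged 0.320 ± 0.0186% in Emcn-/- and 0.402 ± 0.0432% in Emcn+/+ (SD, n = 3 each), a ratio of 0.796, and Emcn+/+ replicate 3 again stood closest to the Emcn-/- libraries. In whole retina, fewer cells of a type and less RNA per cell cannot be told apart.

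The median log2 fold change of the 10 was -0.34, against 0.01 over all tested genes. All Emcn-/- values lay below all Emcn+/+ values in 8 of 10 members, and in 6.94% of tested genes, and the reverse held in 0 of 10 members and 7.48% of genes. At an adjusted p under 0.05, limma called 0 of 10 members lower and 0.00599% of tested genes, which is Emcn alone. At an unadjusted p under 0.05 it counted 10 of 10 members and 4.47% of tested genes. edgeR on the recovered reads called 0 of 10 and 0.00599% of genes, while DESeq2 called 7 of 10 and 0.919% of the genes to which it gave an adjusted p (higher, 0 of 10 and 0.203%). Dst, Sptan1 and Sptbn1 were the members DESeq2 did not call. Its lower calls fell almost all on long genes, members included: 58 of 59 had an exonic length of 10 kb and over. Of the 318 genes of 15 kb and over with a DESeq2 adjusted p, 48 were called lower. Since the members were chosen with this contrast known, nothing is read from these counts.

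The members also varied in step within a genotype. Each gene's log2 values were centred on its own mean over the 6 libraries. The median over the 10 was then -0.10, -0.27 and -0.13 in Emcn-/- replicates 1, 2 and 3, against 0.25, 0.22 and 0.02 in Emcn+/+ replicates 1, 2 and 3. Emcn-/- replicate 2 was the lowest library and Emcn+/+ replicate 3 was far below the other Emcn+/+ libraries. Ank2 followed the mean of the other 9 most closely, with a mean absolute difference of 0.0171 log2 units over the libraries, and Dst least closely, with 0.121.

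Exonic length moved with the same libraries. The other 1459 tested genes of 10 kb and over had centred medians of -0.01, -0.08 and -0.07 in the Emcn-/- libraries, against 0.09, 0.09 and -0.01 in the Emcn+/+ libraries. The 3017 genes under 2 kb went the other way, with 0.00, 0.05 and 0.08 in Emcn-/- against -0.07, -0.07 and 0.04 in Emcn+/+. Emcn+/+ replicates 1 and 2 thus stood apart from the other 4 libraries in both length classes, as they did for the 10 genes. The median log2 fold change between genotypes was 0.08 for genes under 2 kb, 0.04 for 2 to 5 kb, -0.02 for 5 to 10 kb and -0.12 for 10 kb and over. It was -0.17 for the 410 genes of 15 kb and over. Of the genes of 10 kb and over, 1180 of 1469 had a lower mean log2 value in Emcn-/-, and in 26.2% all Emcn-/- values lay below all Emcn+/+ values. Long genes as a class thus had lower values in Emcn-/-. All 10 members lay below the median of the genes of 15 kb and over, Sptbn1 (-0.18) by the least. From the lowest upwards, Syne1 ranked 35, Syne2 48, Dst 72 and Akap9 99 among the 1469 genes of 10 kb and over, and Sptan1 325 and Sptbn1 438.

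**Figure D2:**
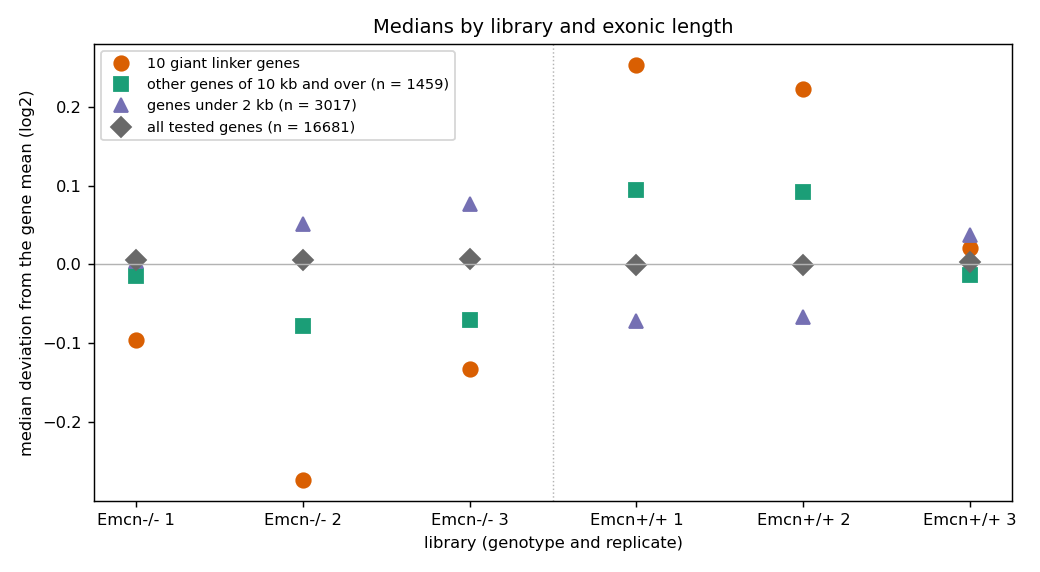
Median deviation of log2 values from each gene's mean (vertical axis) in each library (horizontal axis, Emcn-/- left of Emcn+/+), for the 10 genes, for the other genes of 10 kb and over, for genes under 2 kb and for all tested genes. The 10 genes and the other long genes are high in Emcn+/+ replicates 1 and 2, where genes under 2 kb are low, and all tested genes stay near 0.

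**Figure D3:**
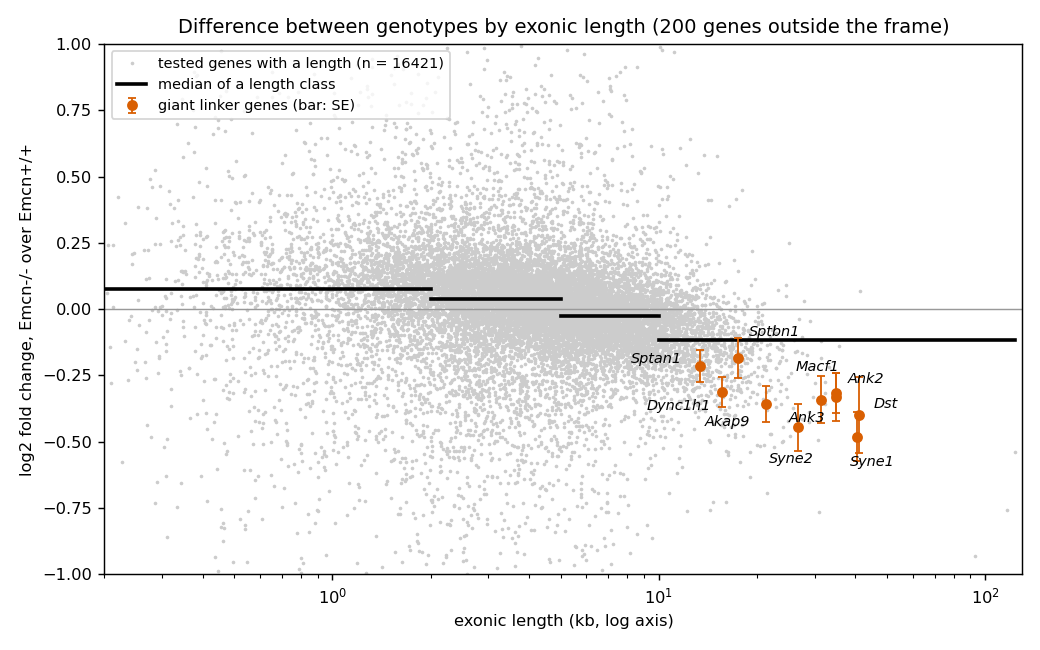
Log2 fold change, Emcn-/- over Emcn+/+ (vertical axis), against exonic length in kb (horizontal log axis) for 16421 tested genes with a length, of which 200 lie outside the frame. Black lines give the medians of 4 length classes, 0.08, 0.04, -0.02 and -0.12, and orange points with SE bars are the 10 genes, all below 0.

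Taking the length trend out of each library left smaller differences. A lowess curve of the centred values on log10 exonic length was subtracted in each library, and the same fit was repeated. The median of the 10 members was then -0.087 in place of -0.34, and the median of all tested genes was 0.00. The SEs given with these values treat the curve as known. With the trend removed, limma called 0 of 10 members lower, and 1 of all tested genes. On exonic length, Syne2 was left at -0.21 ± 0.06, Dync1h1 -0.17 ± 0.05, Syne1 -0.16 ± 0.05 and Akap9 -0.16 ± 0.05. In these 4 genes all Emcn-/- values stayed below all Emcn+/+ values. The share of all tested genes without overlap in this setting was not counted, so nothing is read from that count. In Syne1, for example, the centred values without the trend were -0.02, -0.11 and -0.11 in Emcn-/- libraries, against 0.07, 0.09 and 0.08 in Emcn+/+ libraries, so replicate 3 no longer stood apart from the other Emcn+/+ libraries. For Dync1h1 they were -0.13, -0.12 and -0.01 in Emcn-/-, against 0.06, 0.08 and 0.12 in Emcn+/+. The spectrin Sptan1 was left at -0.10 ± 0.06, and Dst (-0.07 ± 0.08), Macf1 (-0.07 ± 0.05), Ank3 (-0.04 ± 0.05), Ank2 (-0.03 ± 0.05) and Sptbn1 (-0.02 ± 0.06) were closer to 0, with overlap of the genotypes. Ank2 for instance had -0.04, -0.02 and 0.02 in Emcn-/-, against 0.01, -0.00 and 0.03 in Emcn+/+. Which members kept a difference depended on the length used. With the trend drawn on the length of the longest transcript, Syne2 was at -0.08 ± 0.07, Dync1h1 at -0.06 ± 0.06, Syne1 at -0.05 ± 0.05 and Akap9 at -0.13 ± 0.05. In that setting Ank3, whose longest transcript is 9963 bases, was the lowest of the 10 at -0.17 ± 0.06, and Macf1 lay above 0 at 0.04 ± 0.05. The full order of the members without the trend, and the lowest member, therefore changed with the length used. The length trend and the genotype share the same libraries and cannot be told apart in this design.

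**Figure D4:**
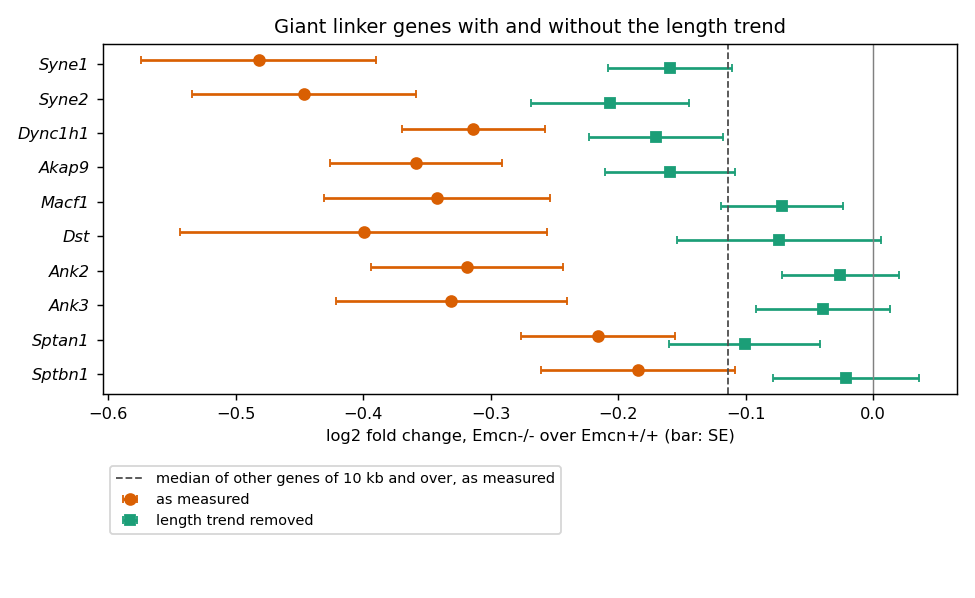
Log2 fold change, Emcn-/- over Emcn+/+ (horizontal axis, bars give the SE), of each of the 10 genes as measured (orange circles) and after the length trend was removed in each library (green squares). Removing the trend on exonic length moved every gene toward 0, to between -0.21 (Syne2, which is at -0.08 with the trend drawn on the longest transcript) and -0.02 (Sptbn1), and the dashed line marks the median of the other genes of 10 kb and over as measured, -0.11.

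The sample titles are numbers, 4 of them in the 140s, and what they stand for is not given. The others, 186 (Emcn-/-) and 188 (Emcn+/+), are replicate 3 of their genotype. The 140s alone thus also leave out Emcn+/+ replicate 3, so they and the setting without that library are not separate checks. Within the 140s, 2 Emcn-/- against 2 Emcn+/+ libraries, the log2 fold changes of the members ran from -0.58 (Syne2) to -0.27 (Sptbn1), with Syne1 at -0.56 and Dst at -0.55. Between 186 and 188, with 1 library per genotype, they ran from -0.33 (Syne1) to -0.02 (Sptbn1), with Syne2 at -0.18 and Dst at -0.10. All 10 were lower in Emcn-/- in both, by more in the 140s. Without Emcn+/+ replicate 3 limma called 8 of 10 members lower, against 0.677% of tested genes (0.228% higher), and Sptan1 and Sptbn1 were the members it did not call. In the 140s alone it called 5 of 10, Syne1, Syne2, Dync1h1, Akap9 and Ank2, against 0.204% of tested genes (0.048% higher). Long genes as a class were called more often too. Of the 410 genes of 15 kb and over, limma called 64 in either direction without Emcn+/+ replicate 3 and 29 in the 140s alone.

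Summed marker levels of some retinal and neighbouring cells differed between the genotypes too, and their part in the members' values was not tested. The sums did not overlap for 5 of 15 marker lists and overlapped for the other 10. Among single tested genes, 6.94% lay lower and 7.48% higher without overlap. These shares are for single genes, and none was counted for sums of several genes, so nothing is read from the count of lists. limma called no marker gene, since Emcn was the only gene it called. Rods (sums above) and cones stood higher in Emcn-/-, with 20430 to 22301 normalised reads of 8 cone genes in Emcn-/- and 18907 to 20201 in Emcn+/+. Retinal pigment epithelium genes, 13 in the table, summed to 9194 to 12784 in Emcn-/- and 4048 to 8206 in Emcn+/+. Ciliary body and iris genes, 7 of 8 in the table, summed to 6537 to 6600 in Emcn-/- and 4609 to 5804 in Emcn+/+. Endothelial genes, all 12 in the table, summed to 8197, 5540 and 8290 in Emcn-/- replicates 1, 2 and 3, and to 8346 to 8802 in Emcn+/+. Singly, 1 of the 12 lay lower without overlap and 0 higher. No marker of these lists was at 0 in all libraries. Ganglion cell and amacrine lists, neurons with large membrane skeletons, overlapped between genotypes. Ganglion cell genes summed to 19498 to 21089 normalised reads in Emcn-/- and 17002 to 21597 in Emcn+/+. Emcn+/+ replicate 3 was the lowest library in both lists, at 17002 for ganglion cell and 15681 for amacrine genes. The genotypes also overlapped in both lists without that library.

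The partners and relatives of the 10 did not share a direction. Over 10 lists chosen by known function, 275 of 298 genes were tested. limma and edgeR called 0 of them in either direction (limma at an unadjusted p under 0.05: 26 lower and 7 higher, against 4.47% and 3.67% of tested genes), and DESeq2 called Map1b and Kif1b lower. The 78 listed genes of 10 kb and over had a median of -0.16 with 67 lower, while the 104 under 5 kb had a median of 0.05 with 78 higher.

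The partners of the nesprins at the nuclear envelope lay near the level of other genes of their length. Of 19 tested LINC complex and lamina genes, 14 were higher and 5 lower in Emcn-/-, with a median log2 fold change of 0.03. Their median exonic length was 4809 bases. Tested genes of 2 to 5 kb had a median of 0.04, with 4247 of 6930 higher. Sun1 and Sun2, the inner membrane partners of both nesprins, were at 0.09 ± 0.08 and 0.10 ± 0.08 (limma adjusted p = 0.781 and 0.745). Sun2 had 470.3, 451 and 439 normalised reads in Emcn-/-, against 401, 449 and 419 in Emcn+/+, which overlap. The members of smallest p were Tor1a, for the envelope ATPase torsinA (0.23 ± 0.08, limma adjusted p = 0.522), and Tmpo, for a lamina-associated protein (0.11 ± 0.06, 0.651), and neither passed.

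Other dynein and dynactin subunits lay mostly above 0, as did tested genes of 2 to 5 kb in general (4247 of 6930 higher, median 0.04). Of 33 tested genes 23 were higher and 10 lower, with a median of 0.03. Their median exonic length was 3978 bases. Dctn1, for the largest dynactin subunit, had 10151, 11214 and 10503 normalised reads in Emcn-/-, against 9636, 10908 and 10794 in Emcn+/+ (0.03 ± 0.07, limma adjusted p = 0.937). Dync1i2, an intermediate chain that joins the heavy chain to cargo, was at 0.05 ± 0.05 (0.830), and Pafah1b1, for the dynein regulator Lis1, at -0.07 ± 0.07 (0.804). Capzb, a capping protein subunit of dynactin, was at 0.19 ± 0.05 (0.476) and Dync1li2, a light intermediate chain, at -0.13 ± 0.05 (0.528). The other dynein heavy chains, which act in cilia and are all over 10 kb, had a median level of only 27.1 normalised reads. They were lower in 9 of 11, with a median log2 fold change of -0.25. That median was -0.20 with a pseudocount of 5 in place of 1. It was -0.089 without Emcn+/+ replicate 2, -0.16 without Emcn-/- replicate 1 and -0.44 without Emcn+/+ replicate 3. Among them Dync2h1, the motor of return transport in the cilium that forms the photoreceptor outer segment, had 1031, 969 and 1169 normalised reads in Emcn-/-, against 1508, 1385 and 1205 in Emcn+/+ (-0.37 ± 0.10, limma adjusted p = 0.424). Dnah7b, an axonemal chain, was at -0.25 ± 0.12 (0.642).

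A-kinase anchors and centrosomal scaffolds were lower in 25 of 34, with a median of -0.05. Their median exonic length was 6642.5 bases, and 11 were of 10 kb and over. Tested genes of 5 to 10 kb were lower in 2938 of 5005, with a median of -0.02. Pcnt and Cdk5rap2, centrosomal scaffolds related in role to Akap9, were at -0.16 ± 0.07 and -0.18 ± 0.08 (limma adjusted p = 0.607 and 0.616). Akap6, an anchor at the nuclear envelope, was at -0.34 ± 0.10 (0.498) and Cep192, a centrosome assembly factor, at -0.34 ± 0.10 (0.482). Plakins and microtubule end proteins were lower in 19 of 26, with a median of -0.07, a median exonic length of 8441 bases and 10 genes of 10 kb and over. Plec, the plakin closest in role to Macf1 and Dst, had 831, 663 and 799 normalised reads in Emcn-/-, against 956, 949 and 832 in Emcn+/+ (-0.26 ± 0.10, limma adjusted p = 0.555). The microtubule-associated protein gene Map1b was at -0.30 ± 0.08 (0.424) and Apc, for a microtubule end and Wnt pathway protein, at -0.26 ± 0.08 (0.514).

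Spectrin and ankyrin partners were lower in 25 of 33, with a median of -0.09. Their median exonic length was 11662 bases, and tested genes of 10 kb and over were lower in 1180 of 1469, with a median of -0.12. The ankyrin paralog Ank1 was at -0.23 ± 0.11 (limma adjusted p = 0.637). Scn8a, a sodium channel that ankyrin-G holds at the axon initial segment, was at -0.33 ± 0.10 (0.479), and the adhesion gene Nfasc at -0.20 ± 0.06 (0.479). The dystrophin family and complex, another membrane skeleton, was level, with 7 of 14 lower and a median of -0.00. This list mixes lengths, with 6 of 14 genes of 10 kb and over. Utrn, a 17.1 kb gene, was at -0.01 ± 0.08 (limma adjusted p = 0.983), with 1158, 1034 and 1142 normalised reads in Emcn-/-, against 1234, 1022 and 1102 in Emcn+/+. Dmd, a 23.8 kb gene, was at -0.16 ± 0.08 (0.672), and Sgcd, with at most 11.7 normalised reads in any library, at 0.68 ± 0.47 (0.717). Long cytoskeletal genes were thus not all lower to the same extent, and of the 78 listed genes of 10 kb and over 67 were lower.

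Kinesin motors were lower in 27 of 41 (median -0.06) and myosin heavy chains in 19 of 26 (median -0.14). Their median exonic lengths were 6476 and 8238 bases, with 6 and 10 genes of 10 kb and over. Tested genes of 5 to 10 kb were lower in 2938 of 5005 (median -0.02). Kif1b was at -0.23 ± 0.06 (limma adjusted p = 0.430) and Kif24, a regulator of cilium formation, at -0.82 ± 0.18 (0.376), with 42.8, 43.6 and 40.7 normalised reads in Emcn-/- against 74.7, 85.3 and 67.7 in Emcn+/+. Myo9a was at -0.27 ± 0.07 (0.400) and Myo18a at -0.17 ± 0.06 (0.522). Actin, tubulin and small cytoskeletal proteins, a list with no gene of 10 kb, went the other way. Of its genes 34 of 38 were higher, against 4247 of 6930 tested genes of 2 to 5 kb. The list had a median of 0.08, against 0.04 for that length class. Its members of smallest p, Actg1 (0.14 ± 0.05, limma adjusted p = 0.526) and Myl12b (0.45 ± 0.19, 0.591), did not pass, and both are uncertain because near-identical copies can share their reads. With the length trend removed the medians of the 10 lists lay between -0.09 and 0.05. With libraries scaled to genes of 10 kb and over, which moved the median of all tested genes to 0.12, every value shifted upward alike, so the medians of 5 lists passed 0. The median of the 10 members was then -0.22, with Sptan1 at -0.10 and Sptbn1 at -0.07. The list medians also depended on single libraries. When 1 library was left out, that of actin, tubulin and small proteins ran from 0.047 to 0.154, that of spectrin and ankyrin partners from -0.182 to -0.047 and that of kinesins from -0.065 to -0.0081.

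**Figure D5:**
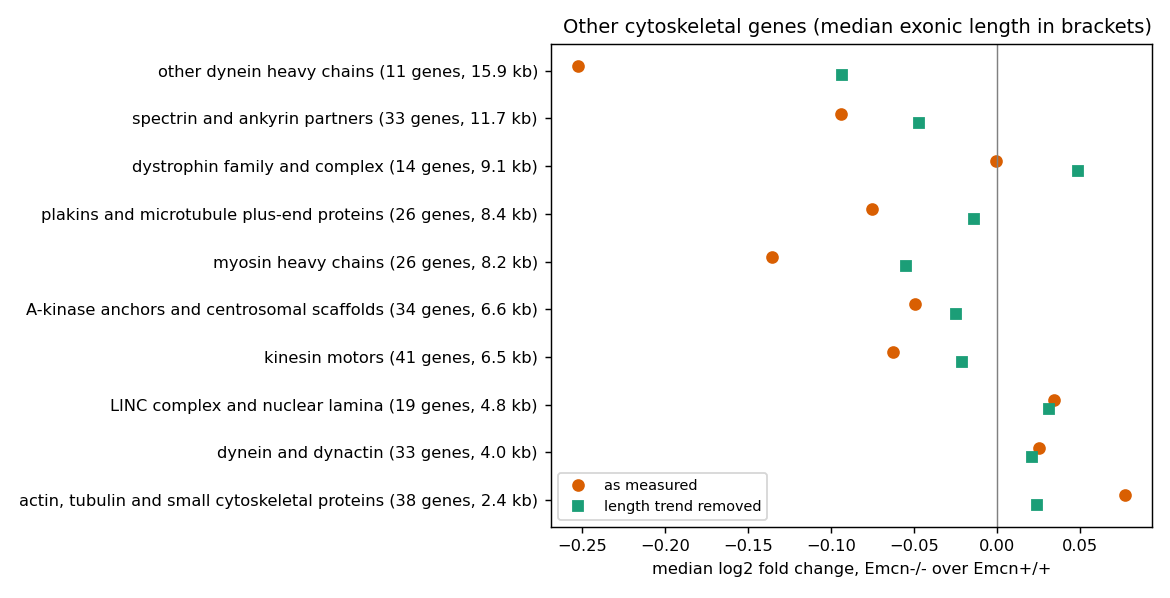
Median log2 fold change, Emcn-/- over Emcn+/+ (horizontal axis), of 10 lists of other cytoskeletal genes, ordered from the list of shortest genes at the bottom to that of longest genes at the top, as measured (orange circles) and with the length trend removed (green squares). The medians as measured run from 0.08 for actin, tubulin and small proteins to -0.25 for the other dynein heavy chains, ends that ran from 0.047 to 0.154 and from -0.44 to -0.089 when 1 library was left out. The other dynein heavy chains had a median level of 27.1 normalised reads.

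Genes whose profile over the 6 libraries was most like that of the 10 were looked for among 6368 other genes with a mean of at least 500 normalised reads. The likeness was the mean absolute difference between centred log2 values. The 5 nearest were Wdfy3, for an autophagy scaffold (0.0236 log2 units), Htt, for huntingtin (0.0242), Mycbp2, for a ubiquitin ligase of axons (0.0244), Unc80, for a subunit of the sodium leak channel complex (0.0302), and Hectd4, for another ubiquitin ligase (0.0303). Htt had 2392, 2070 and 2213 normalised reads in Emcn-/-, against 2862, 2907 and 2475 in Emcn+/+. None of the 5 is a cytoskeletal linker, and their exonic lengths were 14.4 to 24.4 kb, in the range of the members.

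The promoters of the members were also described, taken as the short windows around annotated starts in RefSeq (GRCm38.p6). Of the 10, 9 matched, with 16 windows. A GC box core, GGGCGG on either strand, occurred in 7 of these 16 windows and in 35.7% of all 32851 windows. At the most upstream start it occurred in 6 of the 9 windows, a share that was not counted over all genes. The letters TATAAA occurred in 2 of 16, against 13.6% of all windows, and ACGTG, the core of a hypoxia response element, in 1 of 16, against 19.6%. The windows ranged from 40.3% to 73.3% GC. The most upstream RefSeq windows of the members with the largest and the smallest difference are given 5′ to 3′ on the gene's strand, with GC box cores in capitals.
Syne1, chr10:5550643-5550942, minus strand: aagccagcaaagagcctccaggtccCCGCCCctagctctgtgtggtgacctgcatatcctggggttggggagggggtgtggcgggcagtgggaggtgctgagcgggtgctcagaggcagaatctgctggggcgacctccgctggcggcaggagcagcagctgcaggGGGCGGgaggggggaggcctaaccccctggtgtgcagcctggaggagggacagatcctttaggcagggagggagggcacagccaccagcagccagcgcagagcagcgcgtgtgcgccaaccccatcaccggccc
Sptbn1, chr11:30219723-30220022, minus strand: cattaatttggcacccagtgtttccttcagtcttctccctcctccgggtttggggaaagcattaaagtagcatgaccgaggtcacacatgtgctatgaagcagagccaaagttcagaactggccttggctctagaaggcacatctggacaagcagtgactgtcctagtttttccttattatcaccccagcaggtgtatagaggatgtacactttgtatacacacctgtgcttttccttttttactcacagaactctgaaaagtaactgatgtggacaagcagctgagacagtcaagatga
The Syne1 window holds 2 GC box cores and this Sptbn1 window none, while the other Sptbn1 window holds 1. The Sptbn1 window lies inside the gene as GENCODE M21 bounds it, whose annotated start is further upstream, at 30268175. The most upstream Dst window, which holds 4 GC box cores and begins at 34011345, also lies inside its gene, which starts at 33908225. Matches are descriptions of sequence and say nothing of which factor acts there. Syne1 has 3 windows, Ank2 4, and Dst and Sptbn1 2 each, and the counts do not show which start the transcripts used.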

How the data were processed

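Per the labels' protocols, 1.3 µg of RNA went into each library, and mRNA was captured on poly-T beads. The build was GRCm38, per the submitters' processing notes, and the sources used here name no mapping or counting tool. Values deposited by the authors are a normalised read signal, and their scaling was inferred from the values: within 0.001 of a read, 100% of each library's values were whole multiples of its own step, so division by that step gave read counts. Of 28627 gene IDs, 27390 were found in GENCODE M21, which gave positions and exonic lengths (the union of exons, 98.4% of tested genes). Where IDs shared a symbol (21 symbols), the ID of highest mean level was used.

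All genes were tested on log2(value + 1) in limma 3.58.1 under R 4.3.3, with trended variance, a genotype term and Benjamini-Hochberg adjustment over the 16681 genes that passed edgeR's filter (minimum count 10). The recovered reads were also tested in edgeR 4.0.16 and in DESeq2 1.42.0, and DESeq2 gave an adjusted p to 6417 genes. The length trend was a lowess curve with span 0.3. Other alternatives changed the scaling, filter, pseudocount, title number series, libraries and length measure. Scripts were tested on simulated data.

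The members and lists were chosen with earlier results of these data known. Genes outside the 10 were named by rule: Emcn, partners named whatever their value (1 is not reported here), the 2 genes of smallest p in each list where none was called, and the 5 genes most like the members. No set test was run, and protein sequences were not used here. A limit on detection of 3 reads corresponds to 2.77 to 3.28 normalised reads.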

Additional observations from a re-analysis of the deposited data

How the results depend on the processing

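All 10 members kept a lower mean in Emcn-/- under each of 17 alternatives (170 of 170 values), and 154 of these values moved by less than 1 SD between replicates. Dropping the filter or adding a term for the title number series cannot change a member's value in this design, and both left all values as they were. With the length trend removed, all 10 moved by more than 1 SD. The members were chosen with this contrast known, so nothing is read from these counts. The median of the members ranged from -0.41 to -0.28 when 1 library was left out, and was -0.087 with the length trend removed. That median was -0.11 with a span of 0.6, -0.09 with the curve drawn without the members and -0.06 with transcript length, where Macf1 was above 0, Syne2 was at -0.08 and Ank3 was lowest. It was -0.12 to -0.06 with 1 library left out, where Sptbn1 was above 0 without Emcn-/- replicate 2, and Dst and Sptbn1 without Emcn+/+ replicate 1. These settings of the trend were chosen after seeing the data.

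The count of genes limma called was the least stable value. It was 34 lower and 8 higher in the 140s title series alone. When 1 library was left out it was 0 to 113 lower and 0 to 38 higher, the highest without Emcn+/+ replicate 3. The count was 0 without Emcn-/- replicate 1, Emcn+/+ replicate 1 or Emcn+/+ replicate 2. DESeq2, a different test, called 59 lower and 13 higher among the 6417 genes to which it gave an adjusted p. Of the listed cytoskeletal genes, 1 was called lower in the 140s series (Dync2h1), 2 with DESeq2 and 0 to 5 when 1 library was left out, the 5 (Dnah9, Dync2h1, L1cam, Myo5a and Slc8a1) without Emcn+/+ replicate 3. The cause was not tested. Scaling to genes of 10 kb and over shifted all genes upward alike. It left the members at a median of -0.22 and took above 0 the list medians of A-kinase anchors (0.064), plakins (0.039), spectrin and ankyrin partners (0.020), dystrophin family (0.11) and kinesins (0.051). That of the dystrophin family was also above 0 with upper-quartile scaling (0.0045) and with the length trend removed (0.049), and ran from -0.017 to 0.00033 when 1 library was left out, above 0 without Emcn+/+ replicate 1. Sptan1 stood 15.8 times as high as Syne1 per kb of the longest transcript and 15.9 times per kb of coding length.

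No paired analysis was possible because the labels number no replicates and tie no Emcn-/- sample to an Emcn+/+ sample. A term for the title number series (the 140s against 186 and 188) left 1 gene called lower, 0 called higher and 0 members called. The protein comparison of the plan was not run. Depth limits little for the 10 genes, which had at least 1741 normalised reads in each library.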
